A study of Equus caballus with 18 samples.

Results

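The extensor muscles of the lower limb were compared with the muscles of the upper limb in a male Jeju horse, a Korean pony breed. Of the 18 skeletal muscles sequenced, 13 are limb muscles and entered the comparison, 4 of them distal and 9 proximal. Muscles were assigned to the groups by their anatomical names. The distal muscles were the extensor digitorum communis and extensor carpi radialis of the forelimb and the extensor digitorum longus and extensor digitorum lateralis of the hindlimb. The proximal muscles were the long head of the triceps brachii, biceps brachii, infraspinatus and supraspinatus of the forelimb, and the semitendinosus, gluteus superficialis and the vertebral, middle and caudal parts of the biceps femoris of the hindlimb. The labels do not say which limb the extensor digitorum lateralis came from, and it was placed in the hindlimb as in the drawing of the study. All muscles came from the same animal, and were taken from the warm carcass and frozen in liquid nitrogen. The sources used here give its birth date but not its age at sampling. Each muscle has 1 library of ribosomal RNA-depleted RNA, and muscles stand in for replicates within the distal and the proximal group. The 3 libraries of the biceps femoris come from parts of 1 muscle. P-values therefore measure the spread between muscles of 1 horse and not between horses.

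Proximal limb muscles of the horse lie around the shoulder, arm, hip and thigh, where they hold or move the body. The distal extensors have small bellies that end in long tendons and extend the carpus or the digit as the limb swings forward. Skeletal muscles differ in their share of slow oxidative and fast glycolytic fibres, and also in connective tissue, nerve and vessels. In whole-muscle RNA, fewer cells of a type and less RNA per cell cannot be told apart.

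Between 36314990 and 45124868 reads were counted on genes in the distal muscles, and between 33537488 and 39254160 in the proximal muscles. The most abundant gene took 30.1% to 36.0% of the counts in distal and 24.6% to 39.1% in proximal muscles. Genes with at least 10 counts numbered 12465 to 13177 in distal and 12243 to 13550 in proximal muscles, so both groups overlapped in composition and in the number of genes seen. In depth, the extensor carpi radialis (39725356 counts), extensor digitorum longus (39618298) and extensor digitorum lateralis (45124868) were above every proximal muscle. Only the extensor digitorum communis, at 36314990 counts, lay within the proximal range. Genes are listed by Ensembl identifier, and neither the count table nor the reference table used here pairs these identifiers with a gene name. For this reason, genes are counted rather than named, at most 2 identifiers are given in each direction, and neither muscle nor cell type markers could be checked. Levels are given as CPM, the counts of a gene relative to all counts of its library, with the totals scaled for differences in composition between libraries. A log2 fold change (log2FC) above 0 means a higher level in distal muscles.

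The 4 distal muscles stood on one side of all 9 proximal muscles on the first principal component of log2 CPM, which held 25.7% of the variance over 13288 genes. Scores of the distal muscles were -19.4 for the extensor carpi radialis, -30.0 for the extensor digitorum longus, -30.9 for the extensor digitorum communis and -70.2 for the extensor digitorum lateralis. Those of the proximal muscles ran from 0 for the vertebral part of the biceps femoris to 33.2 for the supraspinatus, with no overlap between the groups. The second component, with 18.0% of the variance, did not divide distal from proximal muscles. On it, the 4 proximal muscles of the forelimb scored between 5.8 and 28.4, and those of the hindlimb between -49.9 and 3.0. The distal muscles did not follow this order of the limbs, as the extensor digitorum communis scored 42.5 and the extensor carpi radialis, also of the forelimb, -15.2.

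**Figure D1:**
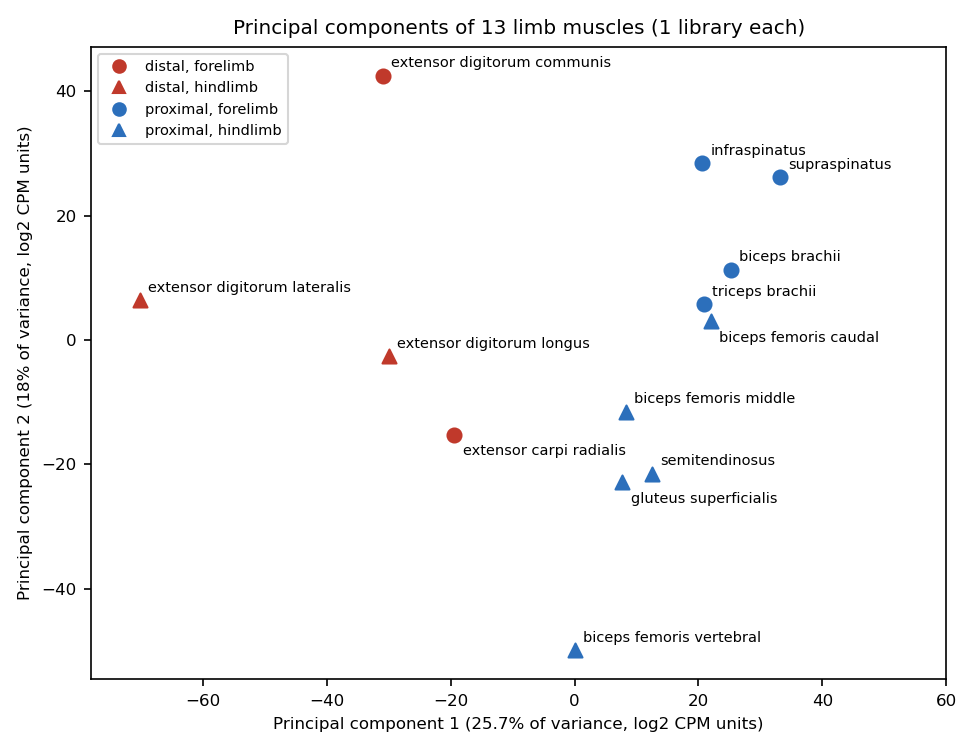
Scores of the 13 limb muscles on the first (25.7% of variance) and second (18.0%) principal components of log2 CPM, with 1 point per muscle, colour for position and shape for limb. The 4 distal muscles lie at -19.4 or below on the horizontal axis, and the 9 proximal muscles at 0 or above.

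Each distal muscle had another distal muscle as its nearest neighbour, and each proximal muscle had a proximal one, by Euclidean distance over the same genes. The extensor carpi radialis of the forelimb and the extensor digitorum longus of the hindlimb were each other's nearest muscle, at a distance of 60.8. The extensor digitorum longus was also nearest to the extensor digitorum communis, at 78.3, and to the extensor digitorum lateralis, at 78.0. It was nearer the middle part of the biceps femoris (70.2), the semitendinosus (74.2), gluteus superficialis (75.4) and triceps brachii (75.7) than either. The extensor carpi radialis lay 89.8 from the extensor digitorum lateralis and 92.8 from the extensor digitorum communis. Every proximal muscle except the supraspinatus (91.3) and biceps brachii (96.1) was nearer to it than either. These ran from 72.2 for the middle part of the biceps femoris to 87.2 for the infraspinatus. The mean distance of the extensor carpi radialis was 81.1 to distal and 81.9 to proximal muscles. Distal muscles were, by the median, further from each other than proximal muscles were. The 6 distances between distal muscles had a median of 80.0 (60.8 to 92.8), the 36 between proximal muscles one of 70.1 (55.9 to 100.4), and the 36 between distal and proximal muscles one of 89.9 (70.2 to 115.8). These ranges overlap, and the distances are given as a description, since each muscle enters many of them. The vertebral and caudal parts of the biceps femoris were 82.3 apart, which is further than the extensor carpi radialis from the extensor digitorum longus.

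How far each distal muscle lies from the upper limb was also counted by gene. The extensor digitorum lateralis was above all 9 proximal muscles in 23.1% of genes and below all of them in 23.6%. These shares were 18.9% and 18.6% for the extensor digitorum communis, 16.1% and 16.6% for the extensor carpi radialis, and 15.2% and 14.5% for the extensor digitorum longus. For comparison, a proximal muscle was above the other 8 in 6.37% (semitendinosus) to 20.2% (vertebral part of the biceps femoris) of genes. Measured against 8 proximal muscles in the same way, on average over the 9 sets of 8, the distal muscles were above them in 16.2% to 24.0% and below them in 15.6% to 24.6% of genes. The vertebral part of the biceps femoris, above the other 8 in 20.2% and below them in 18.5% of genes, thus lay within the range of the distal muscles in both directions. The extensor digitorum lateralis had the highest share of the 13 muscles in both directions.

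Of the 13288 genes tested, 1346 were differentially expressed genes (DEGs) between distal and proximal muscles, with an adjusted p below 0.05 in edgeR's quasi-likelihood test and an absolute log2FC above 0.58, which is a 1.5-fold difference. This is 10.1% of the genes tested, with 756 DEGs higher (5.69%) and 590 lower (4.44%) in distal muscles. Without the extensor digitorum lateralis, the number was 565. The median log2FC was 0.86 over the higher and -0.88 over the lower DEGs, against -0.03 over all genes tested. More than 2-fold differences were found in 284 higher and 215 lower DEGs, and more than 4-fold differences in 49 and 27. In 327 of the 756 higher DEGs, all 4 distal muscles were above all 9 proximal muscles, and in 260 of the 590 lower DEGs they were below all of them. Among all genes tested, 3.9% were separated in this way with distal muscles higher and 2.79% with distal muscles lower.

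Among genes of middle and high abundance, the share of DEGs was close to that of all genes tested. The median level over the 13 muscles was 6.06 CPM for the higher and 4.21 CPM for the lower DEGs, against 4.32 CPM for all genes tested. Of 430 genes with a mean level of at least 100 CPM, 49 were DEGs (11.4%), and of 3998 with at least 10 CPM, 434 (10.9%), against 10.1% of all genes tested. The higher DEGs together took 1.97% to 3.06% of the counts in the distal muscles and 1.07% to 1.78% in the proximal muscles. For the lower DEGs the shares were 0.344% to 0.517% in distal and 0.794% to 1.30% in proximal muscles. Neither pair of ranges overlaps, which follows in part from the choice of these genes on the same libraries. No higher DEG was limited to distal muscles, as each had more than 3 counts in some proximal muscle. Of the lower DEGs, 2 had at most 3 counts in every distal muscle.

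ENSECAG00000021503 was among the genes with the largest differences. It was higher in every distal muscle than in any proximal one, as the choice of identifiers required. Its level was 15.4 CPM in the extensor digitorum communis, 3.88 CPM in the extensor carpi radialis, 16.8 CPM in the extensor digitorum longus and 45.3 CPM in the extensor digitorum lateralis. In the 9 proximal muscles it ranged from 0.731 to 2.98 CPM, with a median of 1.42 CPM. The lateral digital extensor was thus the highest and the extensor carpi radialis the lowest of the distal muscles, at 3.88 CPM against 2.98 CPM in the highest proximal muscle. The log2FC was 3.73 (standard error 0.43, adjusted p = 0.000539 from edgeR). Without the extensor digitorum lateralis, the log2FC was 2.97 (edgeR, adjusted p = 0.00303).

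ENSECAG00000013267 had the largest log2FC of the higher DEGs whose groups do not overlap, and 1 muscle set its size. It was at 228 CPM in the extensor digitorum longus, and at 8.06 CPM in the extensor digitorum communis, 4.06 CPM in the extensor carpi radialis and 3.50 CPM in the extensor digitorum lateralis. The proximal muscles ranged from 0.368 to 2.66 CPM with a median of 0.654 CPM. The log2FC was 5.93 (edgeR, standard error 0.89, adjusted p = 0.00145). Without the extensor digitorum longus it fell to 2.38 (adjusted p = 0.00665 from edgeR). Distal muscles were above proximal ones in either case, which follows from the choice of a gene whose groups do not overlap. Outside the limbs, its level reached 33.7 CPM in the omohyoideus, so high levels were not limited to the distal extensors.

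ENSECAG00000007161 was close to absent in distal muscles. It had 4, 14, 5 and 3 counts in the extensor digitorum communis, extensor carpi radialis, extensor digitorum longus and extensor digitorum lateralis, or 0.100, 0.412, 0.131 and 0.0789 CPM. In the proximal muscles it had 49 to 426 counts, at 1.5 to 8.89 CPM with a median of 3.09 CPM. Its highest levels were in the semitendinosus, gluteus superficialis and vertebral part of the biceps femoris, all of the hindlimb. The log2FC was -4.61 (standard error 0.66, adjusted p = 0.00141 from edgeR). It was -5.37 without the extensor carpi radialis (edgeR, adjusted p = 0.00118), and the few counts in distal muscles make its size imprecise.

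ENSECAG00000012172 was lower in distal muscles at a higher level of expression. It was at 4.72 CPM in the extensor digitorum communis, 4.76 CPM in the extensor carpi radialis, 3.72 CPM in the extensor digitorum longus and 2.87 CPM in the extensor digitorum lateralis. The proximal muscles ranged from 16.7 CPM in the biceps brachii to 134 CPM in the supraspinatus, with a median of 29.7 CPM. The distal muscles lay close together, with a mean of 4.02 ± 0.905 CPM (SD, n = 4), while the proximal muscles spread widely, at 45.9 ± 36.2 CPM (SD, n = 9). The log2FC was -3.51 (standard error 0.53, adjusted p = 0.00145 from edgeR).

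**Figure D2:**
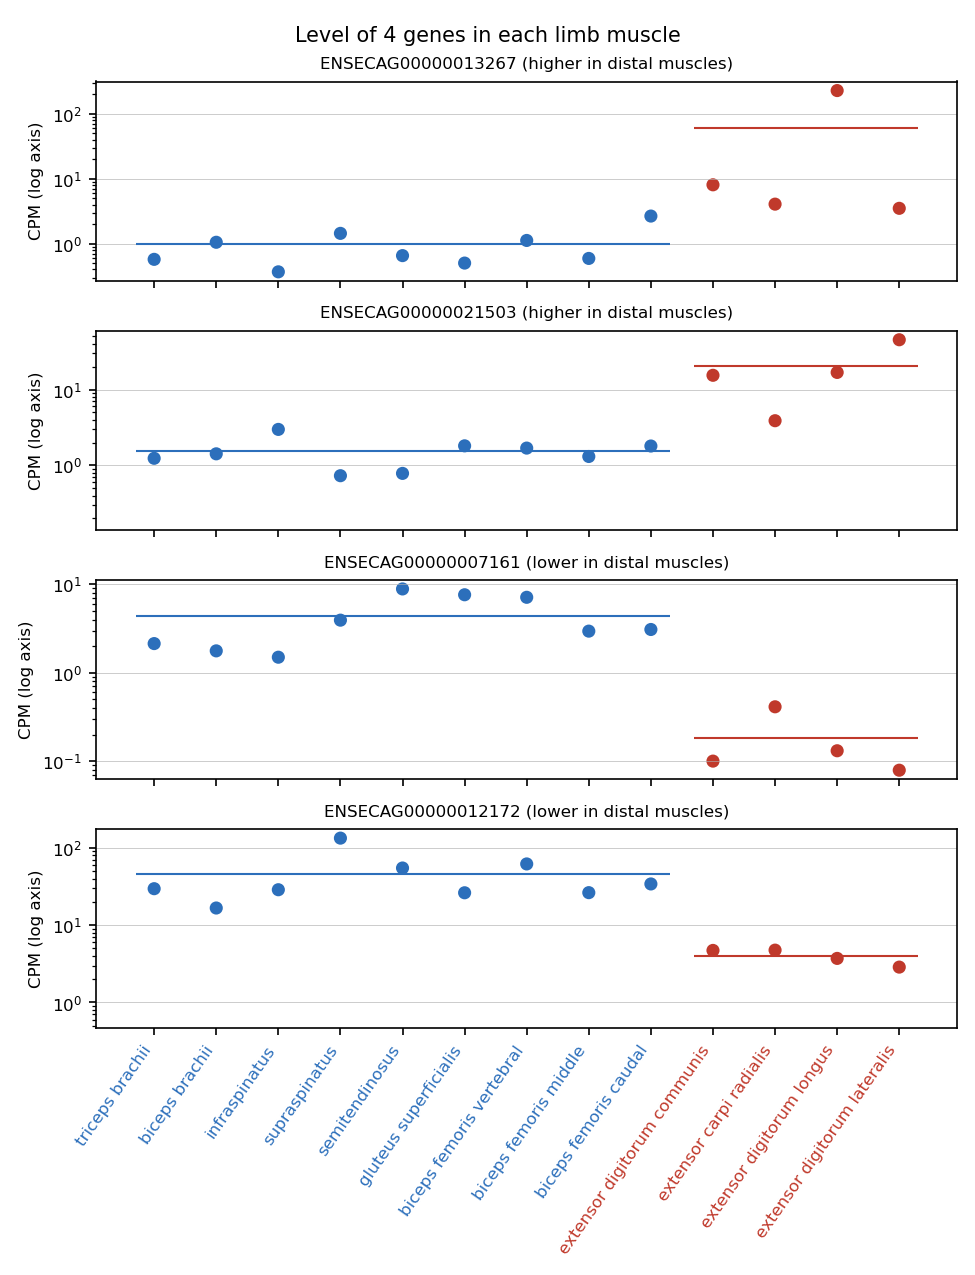
Level of the 4 identifiers in CPM on log axes in the 9 proximal (blue) and 4 distal (red) muscles, with 1 point per library and lines at the group means. The distal and proximal points do not overlap for any of the 4, and the extensor digitorum longus at 228 CPM lies far above the other distal muscles for ENSECAG00000013267.

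The comparison was repeated within each limb, which gives contrasts that share no library. In the hindlimb, edgeR called 480 DEGs (3.56% of 13478 genes tested), 332 higher and 148 lower in distal muscles. This fit set 2 distal against 5 proximal libraries, of which 3 are parts of the biceps femoris and count as separate replicates. In the forelimb, with 2 distal and 4 proximal muscles, edgeR called 0 of 13273 genes, although 1998 had an unadjusted p below 0.05. The DESeq2 Wald test called 353 DEGs in the forelimb (2.66%), 170 higher and 183 lower, and 1140 in the hindlimb (8.46%), 705 higher and 435 lower. A count of DEGs within a limb therefore depends on the tool, in the forelimb between 0 and 353.

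The direction of the differences was alike in both limbs. Of the 461 hindlimb DEGs of edgeR that were also tested in the forelimb, 451 (97.8%) had the same sign there, against 75.3% of the 13057 genes tested in both limbs. An unadjusted p below 0.05 in the forelimb was reached by 292 of the 461, all with the sign of the hindlimb. Of all 13273 genes tested in the forelimb, 1998 reached it. Over these hindlimb DEGs the median absolute log2FC was 0.81 in the forelimb and 1.27 in the hindlimb. Because they had been chosen in the hindlimb, these medians do not show that differences were smaller in the forelimb. In DESeq2, 192 genes were DEGs in both limbs, all in the same direction, which is 54.4% of the forelimb and 16.8% of the hindlimb DEGs. Of the 353 forelimb DEGs of DESeq2, 341 (96.6%) had the same sign in the hindlimb. Across the 13057 genes the log2FC of both limbs had a Pearson's r of 0.63 and a Spearman's rho of 0.64, given as a description because genes are not independent replicates and all libraries come from 1 horse.

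**Figure D3:**
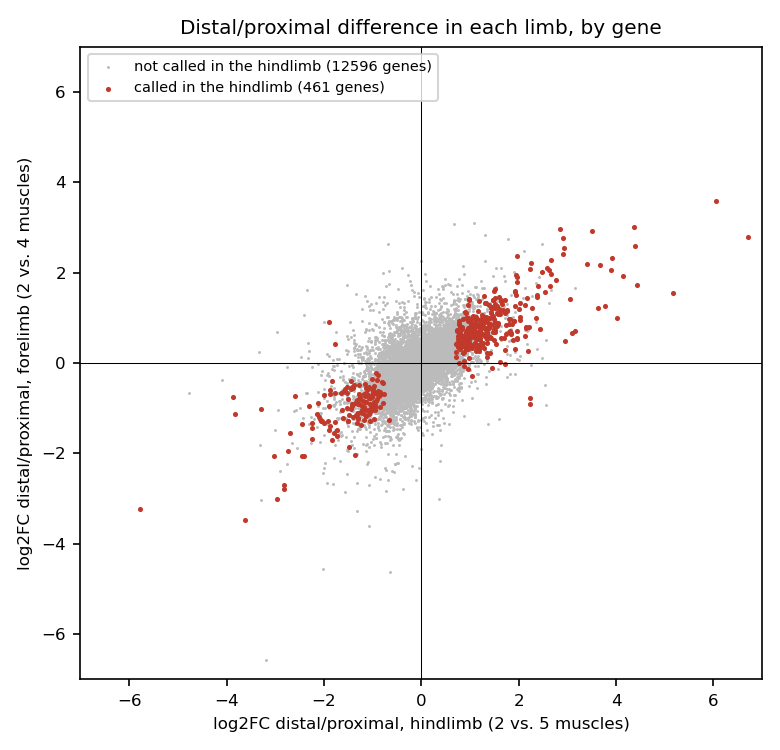
Log2FC of distal over proximal muscles in the hindlimb (horizontal, 2 vs. 5 libraries) and in the forelimb (vertical, 2 vs. 4 libraries). Each gene tested in both limbs is 1 point. Of the 461 hindlimb DEGs (red), 451 lie in the quadrants where both limbs have the same sign.

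Whether the difference between distal and proximal muscles itself differed between the limbs was tested as an interaction of position and limb. In edgeR, 0 of 13288 genes had an adjusted p below 0.05, with 295 at an unadjusted p below 0.05, and DESeq2 likewise called 0, with 318 unadjusted. With 2 distal muscles per limb, the lack of calls does not show that the limbs are alike. For the 4 identifiers, the log2FC in the forelimb and hindlimb was 2.59 and 4.38 for ENSECAG00000021503, 2.79 and 6.72 for ENSECAG00000013267, -3.23 and -5.79 for ENSECAG00000007161, and -3.48 and -3.63 for ENSECAG00000012172. Their equal signs in both limbs follow from their choice, since the distal and proximal levels do not overlap in any of them.

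Each muscle was then placed among DEGs that had been called without it. For every DEG of the fit without a given muscle, its level was set against the means of the remaining distal and proximal muscles on the log2 CPM scale. The extensor digitorum lateralis was nearer the distal mean in 507 of 565 DEGs (89.7%), and the extensor digitorum longus in 854 of 1162 (73.5%). The extensor digitorum communis was nearer the distal mean in 806 of 1467 DEGs (54.9%) and the extensor carpi radialis in 745 of 1419 (52.5%). The share was thus lower in both distal muscles of the forelimb than in those of the hindlimb, with the reserve that each muscle was placed in its own set of DEGs. Both still lay on the distal side of the proximal mean in 87.5% and 86.8% of these DEGs, against 97.9% for the extensor digitorum lateralis and 96.0% for the extensor digitorum longus. For the proximal muscles, placed in the same way against the other 8, this share was 34.9% (supraspinatus) to 70.2% (vertebral part of the biceps femoris). The extensor digitorum communis was beyond all 9 proximal muscles, in the direction of the call, in 54.5% of the DEGs called without it, and the extensor carpi radialis in 52.7%.

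The proximal muscles were nearer the distal mean in far fewer DEGs called without them. The share was lowest in the supraspinatus, at 7.02%, and was between 9.52% and 16.2% in the triceps brachii, biceps brachii, infraspinatus, semitendinosus, gluteus superficialis and caudal part of the biceps femoris. It reached 22.6% in the middle part and 33.8% in the vertebral part of the biceps femoris, the proximal muscle closest to the distal ones by this measure. When 1 part of the biceps femoris was left out, its other parts stayed in the fit and in the proximal mean. The 3 parts of the biceps femoris, from 9.52% to 33.8%, thus covered nearly the whole range of the proximal muscles. When they were summed into 1 library, 1402 genes were DEGs, of which 1221 were among the 1346 with the same direction.

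**Figure D4:**
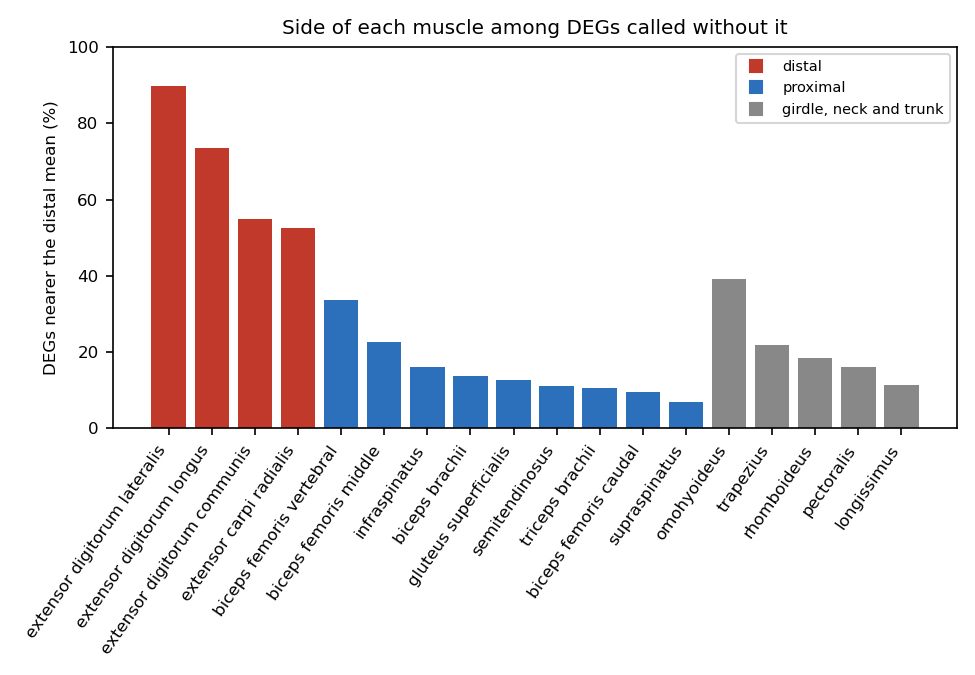
Share of DEGs, in percent, in which a muscle was nearer the distal than the proximal mean, with DEGs called without the muscle shown. The 4 distal muscles (red) lie between 52.5% and 89.7%, the 9 proximal muscles (blue) between 7.02% and 33.8%, and the 5 girdle, neck and trunk muscles (grey), set against the 1346 DEGs of all limb muscles, between 11.5% and 39.2%.

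The number of DEGs rested most on the extensor digitorum lateralis. Without this muscle, 565 DEGs remained by edgeR, 293 higher and 272 lower in distal muscles, of which 527 were among the 1346 with the same direction. Leaving out any of the other 12 muscles gave 1139 to 1512 DEGs, the highest number without the vertebral part of the biceps femoris. In 504 of the 756 higher DEGs the extensor digitorum lateralis was the highest of the distal muscles, and in 297 of the 590 lower DEGs it was the lowest. The extensor carpi radialis was the least different distal muscle in 299 of the higher and 204 of the lower DEGs, and the extensor digitorum communis in 279 and 206. These counts of extremes are a description only. The DEGs were called with the same muscles in the fit, and no share over all genes tested is given beside them. A set of 447 genes, 33.2% of the DEGs, was called in each of the 13 fits that left out 1 muscle, with 235 higher and 212 lower in distal muscles.

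**Figure D5:**
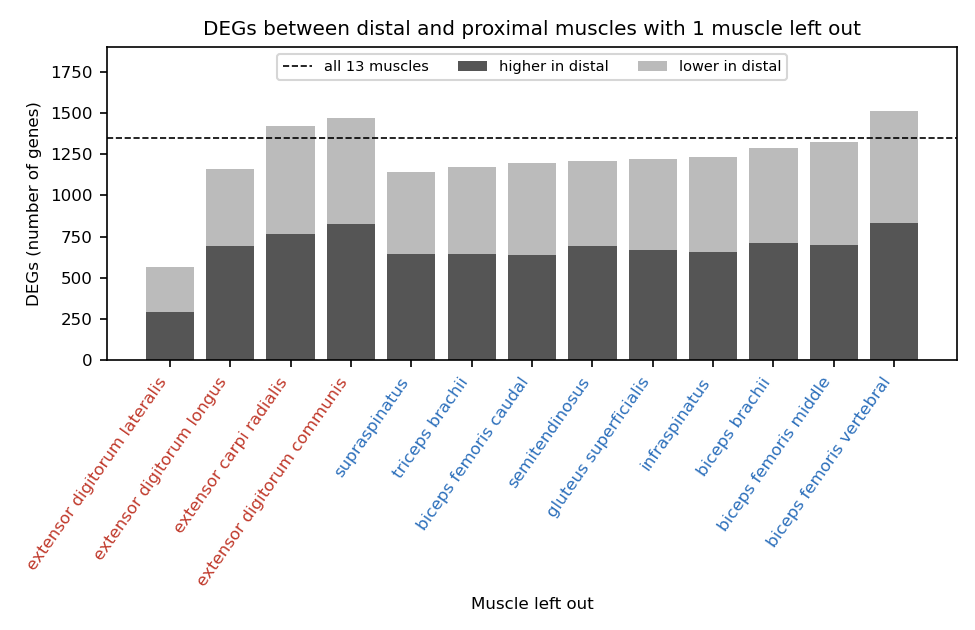
Number of DEGs between distal and proximal muscles when the muscle named on the horizontal axis was left out, divided into genes higher and lower in distal muscles, with the 1346 DEGs of all 13 muscles as a dashed line. The number falls to 565 without the extensor digitorum lateralis and lies between 1139 and 1512 without any other muscle.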

How the data were processed

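RNA of 18 muscles of 1 horse was sequenced with paired reads of 101 bp. According to the study's methods, the authors trimmed reads with NGSQCToolkit, aligned them to EquCab2 with STAR (version 2.5.2b in the submitters' processing notes) in a two-pass mode and counted reads per Ensembl gene. The authors deposited raw counts as whole numbers for 25239 genes, with 0 columns of unknown sample and every line naming a gene. No 2 libraries agreed within sampling noise, as the lowest chi-square per degree of freedom over pairs was 28.2.

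The 13 limb muscles were grouped by their names. Genes passing filterByExpr were tested with edgeR 4.0.16 in R 4.3.3 (TMM normalization, glmQLFit and glmQLFTest, Benjamini-Hochberg adjustment over all genes tested), without covariates. The standard error is the log2FC divided by the root of the F statistic. DESeq2 1.42.0 was an alternative. Distances and principal components used log2 CPM with a prior count of 2. The scripts were tested on simulated data.

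The muscles and lists were chosen with earlier results of these data known. Gene lists for fibre types, metabolism, matrix, limb position and cell types could not be used, as 0 identifiers were paired with a name. Identifiers shown were the 2 DEGs per direction with the largest log2FC among those whose groups did not overlap and whose higher group had 10 counts or more in each library. Other alternatives were other filters and size factors, a robust fit, limb as a covariate, all 18 muscles, the biceps femoris parts summed, each limb alone and leaving out each muscle. Those added after seeing the data were a 2-fold threshold, DESeq2 within each limb and the placing of left-out muscles. Figures used Python 3.11.15 and matplotlib 3.10.9.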

Additional observations from a re-analysis of the deposited data

Results flagged for a closer look

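Of 36 sets of values tested for a library far from the others of its group, 8 held one. Chance alone flags about 1 in 20 groups by Dixon's limit, a rate that cannot be applied to the levels of the 4 identifiers or the shares of the DEGs, which were chosen on these libraries. These include the total of 33537488 counts in the biceps brachii, the lowest of the proximal muscles, and the 0.344% of counts taken by the DEGs lower in distal muscles in the extensor digitorum lateralis, the lowest of the distal muscles. ENSECAG00000013267 was far above the other distal muscles in the extensor digitorum longus (228 CPM), and far above the other proximal muscles in the caudal part of the biceps femoris (2.66 CPM). ENSECAG00000021503 was highest of the proximal muscles in the infraspinatus (2.98 CPM). ENSECAG00000007161 was highest of the distal muscles in the extensor carpi radialis (0.412 CPM). ENSECAG00000012172 was far above the rest of its group in the supraspinatus (134 CPM) and in the longissimus (158 CPM).

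In muscles that entered no comparison, levels above all 9 proximal muscles were found for ENSECAG00000013267 in the rhomboideus (23.4 CPM), omohyoideus (33.7 CPM), trapezius (9.48 CPM) and longissimus (7.61 CPM), and for ENSECAG00000021503 in the omohyoideus (5.38 CPM). Levels of these muscles were scaled over all 18 libraries, and those of the limb muscles over 13. For ENSECAG00000013267, the rhomboideus and omohyoideus were also above every distal muscle except the extensor digitorum longus. The next distal muscle was the extensor digitorum communis, at 8.06 CPM. High levels of this gene were thus not limited to the distal extensors.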

How the results depend on the processing

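The number of DEGs, 1346 with all 13 muscles, was between 1243 and 1641 under DESeq2 (1641, of which 1338 were among the 1346 with the same direction), DESeq2's size factors (1346), testing without a count filter (1243, 1131 of them shared in this way), a minimum of 10 counts in all 13 libraries (1250, 1184 shared), a robust fit (1344), limb as a covariate (1545), all 18 muscles (1428, 1252 shared) and the biceps femoris parts summed (1402). The number was 499 at a 2-fold threshold. Within limbs it was 0 in the forelimb and 480 in the hindlimb by edgeR, and 353 and 1140 by DESeq2, where fewer muscles were tested. Leaving out 1 muscle gave 565 (without the extensor digitorum lateralis) to 1512 DEGs. The interaction of limb and position gave 0 genes with all 13 muscles by edgeR and by DESeq2, and 0 by edgeR without any 1 muscle. The 4 identifiers each lost the call in the forelimb alone by edgeR (adjusted p = 0.18 to 0.206) and in no other alternative that gave an adjusted p. Their direction was fixed by their choice, as no distal level overlaps a proximal one. DESeq2 over both limbs gave no adjusted p for ENSECAG00000013267. ENSECAG00000007161 was not tested under the minimum of 10 counts in all 13 libraries, as its counts in distal muscles fell below it. Medians of gene lists were not run, for lack of names. Counting error and the number of distal muscles limit genes at few counts, and 1 horse limits all p-values. No paired analysis was possible because no label ties a distal to a proximal muscle by number, and limb was used as a covariate only.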

Other observations

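The 5 muscles of the shoulder girdle, neck and trunk entered no comparison, and their place among the 1346 DEGs is given as values. The omohyoideus, a slender strap muscle of the neck, was nearer the distal mean in 527 of 1346 DEGs (39.2%), of which 297 were among the 756 higher and 230 among the 590 lower DEGs. The trapezius was nearer the distal mean in 22.0%, the rhomboideus in 18.5%, the pectoral muscle in 16.0% and the longissimus in 11.5%. The omohyoideus thus lay above the 9 proximal limb muscles, which reached 33.8% in DEGs called without them, and below the 4 distal muscles, which began at 52.5%.

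ENSECAG00000012172 was at 2.78 CPM in the omohyoideus, where the lowest distal muscle had 2.87 CPM, and at 158 CPM in the longissimus, where the highest proximal limb muscle had 134 CPM. It was at 9.23 CPM in the trapezius and 13.1 CPM in the rhomboideus, with 4.76 CPM in the highest distal and 16.7 CPM in the lowest proximal limb muscle. ENSECAG00000007161 was at 1.3 CPM in the omohyoideus and 1.41 CPM in the trapezius, with 0.412 CPM in the highest distal and 1.5 CPM in the lowest proximal muscle. Levels of the muscles outside the limbs were scaled over all 18 libraries and those of the limb muscles over 13, so no order is read from values this close.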
